A study of Mus musculus with 18 samples.

Results

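Transcripts of 5 of the 20275 measured genes, Slamf1, Cd48, Cd244a, Flt3 and Cd34, were followed across hematopoietic cells of the developing and adult mouse bone marrow (BM). They were chosen because antibodies to their products, CD150, CD48, CD244, CD135 and CD34, are the usual surface markers for sorting mouse hematopoietic stem and progenitor cells, and every chosen gene was found in the count table, Cd244a under its older symbol Cd244. The study profiled C57B6/J mice by CITE-Seq, in which cells are stained with antibodies that carry DNA barcodes so that a transcript count and an antibody count are read from the same cell. The libraries used here held lineage-negative Kit-positive BM cells, called hematopoietic progenitors (HPs) and were each sorted from a pool of mice. The labels name no engineered allele and no treatment. There were 2 HP libraries from embryonic day 16.5 (E16.5-1 and E16.5-2) and 1 each from E18.5, from newborns (P0) and from adults, with 20982 HP cells of 56201 cells in all (HP and stromal together). With 1 library for each stage after E16.5, levels are described by stage without a test.

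SLAM family receptors are immunoglobulin-like surface proteins of blood cells. Most of them bind the same protein on a neighbouring cell and signal through small SH2 adaptor proteins, while CD48 is anchored by a lipid and is the ligand of CD244. In the adult mouse, stem cells are sorted as CD150-positive CD48-negative cells, CD244 and CD48 mark progenitors that have left the stem cell state, CD135 (the receptor tyrosine kinase FLT3) marks lymphoid-primed progenitors, and CD34 is a sialomucin of progenitors, mast cells and endothelium.

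Slamf1, Cd48 and Cd244a lie in one stretch of 242.5 kb on chromosome 1 (GRCm38.p6, the RefSeq form of the mm10 build, 171558718 to 171801184), and with Ly9, Slamf7, Cd84 and Slamf6 they form a SLAM cluster of 7 genes over 390.2 kb. Cd34 lies farther along the same chromosome (194938821 to 194961292), and Flt3 lies on chromosome 5 (147330741 to 147400489, minus strand). The 150 bases before the RefSeq start are shown for 3 members whose single highest code differed (MegP2, LymP and HSPC2), Slamf1 (chr1:171766982-171767131, plus strand), Flt3 (chr5:147400490-147400639, minus strand) and Cd34 (chr1:194938671-194938820, plus strand). Capitals mark the letters AGGAAG, the core of an ETS factor site, or their reverse complement. The windows of Cd48 and Cd244a fall inside the annotated span of their own genes and are not shown.
Slamf1: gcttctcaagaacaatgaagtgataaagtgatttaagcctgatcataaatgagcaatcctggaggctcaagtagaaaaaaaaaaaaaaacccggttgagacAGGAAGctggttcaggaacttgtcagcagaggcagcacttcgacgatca
Flt3: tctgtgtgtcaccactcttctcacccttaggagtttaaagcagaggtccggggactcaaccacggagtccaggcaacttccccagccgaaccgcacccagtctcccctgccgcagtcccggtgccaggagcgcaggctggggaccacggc
Cd34: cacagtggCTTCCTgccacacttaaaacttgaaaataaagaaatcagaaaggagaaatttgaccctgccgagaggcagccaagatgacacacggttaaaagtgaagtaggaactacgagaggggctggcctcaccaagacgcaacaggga
The AGGAAG letters began 49 bases before the Slamf1 start and, on the other strand, 142 bases before the Cd34 start, and they were found on either strand in 19.7% of 32851 mouse promoter windows of this length. Neither GATA letters (AGATAA, 5.65% of windows), RUNX letters (TGTGGT, 8.40%) nor the E-box CAGCTG (8.39%) were found in these 3 windows. A match describes letters only and is not a site.

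Total UMI counts (unique molecules) were 13974733 in E16.5-1, 59206442 in the adult and between 64849542 and 127489333 in the other libraries, with medians of 6747 to 23291.5 UMIs per cell. The authors' cluster annotation divided the 5 libraries into 88 combinations of library and cluster, of which 77 held at least 30 cells. Codes with fewer cells were not ranked below. E16.5-1 was thus ranked on 5 of its 14 codes, without DC1 (9 cells), TCell5 (13 cells) and Bcell1 (28 cells), among others. Clusters are given by the authors' codes, since the codes named HSPC were not a uniform class by their markers: summed counts of 5 stem cell markers ran from 68.0 UMIs per 1000000 (CPM) in E16.5-2 HSPC1 to 492 CPM in P0 HSPC2. Of the HSPC codes, only P0 HSPC2 and HSPC3 had any of the 5 among their 10 leading genes. E18.5 HSPC2 and adult HSPC5 had none, at marker sums of 439 and 419 CPM. The leading genes of HSPC1 included Flt3 and Cd209a, and those of adult HSPC5 included Flt3. Those of P0 HSPC4 included Mpo, Prtn3 and Ms4a3, genes of myeloid progenitors. Of the E16.5-2 codes named TCell, TCell1 to TCell3 and TCell5 had none of Cd3e, Cd3d, Cd3g, Lck, Ptcra, Bcl11b and Nkg7 among their 10 leading genes, and those of TCell6 included the T cell genes Cd8b1, Cd28 and Zap70. Before any result, 1689 HP cells (8.05%) were found to carry a barcode sequence that also occurs in another HP library, among them 333 of the 560 E16.5-1 cells. Of the 960 cells that were not the deepest with their barcode, 887 fell in 8 codes with a median under 1000 UMIs, which are left out of the ranking of codes below. Leaving those 960 cells out changed no call on a member, and the counts of called genes became 163, 4 and 12 in place of 169, 4 and 15 for the 3 antibody comparisons below and 18, 17, 246 and 284 in place of 17, 16, 246 and 286 for the gates. Only 1 of the 333 E16.5-1 cells was among the 960, and the rest stayed in. Most cells left out were shallow and add little to a sum, so this cannot show that the sharing was harmless.

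Slamf1, the gene for CD150, was sparse, and after E16.5 it was highest in codes named for megakaryocyte progenitors (MegP), at E18.5 one shared with erythroid cells. Over all cells it was at 0.573 CPM in E16.5-1 (8 UMIs), 2.21 CPM in E16.5-2, 2.36 CPM at E18.5, 3.05 CPM at P0 and 2.48 CPM in the adult. The highest code was EryP/MegP at E18.5 (8.39 CPM, exact Poisson 95% interval 6.61 to 10.5), MegP1 at P0 (12.3 CPM, 10.7 to 14.2) and MegP2 in the adult (17.5 CPM, 13.7 to 22.1), with 3, 2 and 2 other codes whose intervals overlapped. The leading genes of EryP/MegP were erythroid, such as Ermap and Rhag, with none of the megakaryocyte markers among its first 10. The same 3 codes also had the largest share of CD150 antibody-positive cells in their libraries, at 62.9%, 74.5% and 89.0%. Codes named HSPC held little Slamf1: 0 UMIs in E16.5-1 HSPC1, which allows up to 4.42 CPM, 1.25 CPM in E16.5-2 HSPC1, 2.59 CPM in E18.5 HSPC2, 2.79, 2.32 and 2.79 CPM in P0 HSPC2, HSPC3 and HSPC4 and 1.83 CPM in adult HSPC5. The interval of MegP1 lay above those of all 3 P0 HSPC codes, and that of MegP2 above that of HSPC5. In E16.5-2 the order was led by TCell1 (6.39 CPM), TCell6 (5.03 CPM) and the macrophage-like code Mono/Mast (4.32 CPM), and 5 other codes had intervals that overlapped that of TCell1. Intervals and limits of this kind cover counting error only. When each cell was thinned to 1000 UMIs, 1.69% of adult MegP2 cells kept a Slamf1 UMI (exact binomial interval 0.681 to 3.44) against 0 of 521 adult neutrophils, which should lack it and allow up to 0.576%. Before thinning the MegP2 share was 14.9%, and the median depths were 7981 UMIs in MegP2 and 10212 UMIs in the neutrophils.

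Cd48, whose lipid-anchored product is the ligand of CD244, was at 10 CPM or more in 75 of the 77 sums, and at E18.5 and in the adult it was lowest in neutrophil and erythroid codes. Library levels were 95.8, 117, 123, 106 and 65.9 CPM in E16.5-1, E16.5-2, E18.5, P0 and adult. HSPC1 was the highest ranked code of E16.5-1 (179 CPM, 151 to 210), where DC1 was not ranked. In E16.5-2 it stood at 232 CPM beside DC1 at 237 CPM, with overlapping intervals. From E18.5 on, other codes led: Mono1iii at E18.5 (278 CPM, 228 to 337), BCell2 at P0 (186 CPM, 135 to 248) and Mono6 in the adult (279 CPM, 246 to 315). HSPC codes were at 153 CPM at E18.5, at 161, 139 and 120 CPM in P0 HSPC2, HSPC3 and HSPC4, and at 98.2 CPM in adult HSPC5, so that the highest HSPC code lay below the top interval at E18.5 and in the adult. At P0 the intervals of 5 other codes overlapped that of BCell2, and the level of HSPC2 lay within it. The lowest values were 7.37 CPM in E18.5 Neu2 (3 UMIs), 11.9 CPM in adult EryP2 and 12.5 CPM in adult Neu3. After thinning, 22.9% of adult Mono6 cells and 8.32% of HSPC5 cells kept a Cd48 UMI, against 0.423% of adult erythroid cells. At P0 erythroid cells were at 60.2 CPM with a thinned share of 5.17%, so the erythroid codes of these libraries were not alike.

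Cd244a, the gene for the CD48 receptor CD244, was high in some codes named for basophils and monocytes and in cytotoxic lymphocyte codes, and low in megakaryocyte and erythroid codes. Library levels were 7.51, 6.88, 10.2, 8.17 and 5.29 CPM in the same order. The highest codes were HSPC1 in E16.5-1 (28.8 CPM, 18.4 to 42.8), TCell5 in E16.5-2 (21.6 CPM, 16.4 to 27.9), Bas1 at E18.5 (85.3 CPM, 72.6 to 99.7), Eos/Bas3 at P0 (44.2 CPM, 29.8 to 63.1) and T/NK in the adult (59.98 CPM, 40.5 to 85.6). Each led the ranked codes of its library, and all but HSPC1 had at least 1 other code with an overlapping interval, such as Mono1iii at E18.5 (74.3 CPM) and Mono6 in the adult (35.3 CPM). In E16.5-1, TCell5 was not ranked. Neither Bas1 nor Eos/Bas3 had the basophil genes Mcpt8 and Prss34 among its 10 leading genes. Those of Mono6 included the dendritic cell gene H2-Aa. HSPC codes held 16.5 CPM in E16.5-2, 10.2 CPM at E18.5, 14.8, 12.3 and 7.96 CPM at P0 and 18.7 CPM in the adult. Megakaryocyte codes were far lower, with 1.53 CPM in P0 MegP1 and 1.25 CPM in adult MegP2, which rest on 25 and 5 UMIs. The thinned share was 10.2% in adult T/NK and 3.04% in HSPC5 against 0.280% in adult B cell codes. B cell codes of the earlier libraries were not free of Cd244a, at 7.91 to 14.9 CPM, and at P0 their thinned share of 1.29% was above those of HSPC2 (1.16%) and HSPC3 (0.713%), with overlapping intervals, so thinned shares at P0 did not tell these codes apart. At full depth, P0 erythroid cells were at 0.813 CPM (0.444 to 1.36) and P0 HSPC2 and HSPC3 above them.

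Flt3, the receptor tyrosine kinase of lymphoid and dendritic progenitors, was at 10 CPM or more in 29 of the 77 sums, as was Cd244a, beside 2 for Slamf1 and 62 for Cd34. Library levels were 10.5 and 3.30 CPM in the E16.5 libraries and 37.0, 34.6 and 23.7 CPM at E18.5, P0 and in the adult. It was highest in HSPC1 of E16.5-1 (127 CPM, 104 to 154), DC1 of E16.5-2 (88.5 CPM, 69.2 to 111), HSPC2 at E18.5 (127 CPM, 120 to 134), the lymphoid progenitor code LymP at P0 (185 CPM, 174 to 196) and HSPC5 in the adult (156.5 CPM, 146 to 167). In none of these libraries did the interval of another ranked code overlap the highest one. In E16.5-1, DC1 was not ranked. HSPC1 differed between the E16.5 libraries, with 56.5 CPM (48.6 to 65.3) in E16.5-2, on 33 and 165 cells. At P0 the intervals of HSPC2 (83.6 CPM) and HSPC3 (79.0 CPM) overlapped, and HSPC4 lay lower at 39.0 CPM (33.7 to 44.9). Median levels over codes were 0.340, 0.540, 3.09, 22.6 and 6.04 CPM, highest at P0. Ranked codes without a Flt3 UMI numbered 2, 5, 1, 0 and 1 in the same order, so most codes held some Flt3 in each library. The thinned share was 16.2% in adult HSPC5 and 14.2% in P0 LymP, against 0.634% of adult and 0.216% of P0 erythroid cells and 0 of 69 adult mast cells, which allows up to 4.35%.

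Among the ranked codes, Cd34 was highest in an HSPC code in every library, followed by a mast, myeloid progenitor, HSPC or monocyte code. Library levels were 110, 63.0, 140, 142 and 72.0 CPM. HSPC1 held 189 CPM (161 to 221) and 185 CPM (170 to 200) in the E16.5 libraries, HSPC2 310 CPM (299 to 321) at E18.5 and 342 CPM (331 to 354) at P0, and HSPC5 269 CPM (255 to 283) in the adult. At E16.5 the next code was Mast1, with 166 and 137 CPM, and its interval overlapped that of HSPC1 in E16.5-1 only. At E18.5 it was the myeloid progenitor code MyP1 (288 CPM, 278 to 298), at P0 HSPC3 (323 CPM, with an interval that overlapped that of HSPC2) and LymP (299 CPM), and in the adult Mono4 (165 CPM). P0 HSPC4 lay below them at 197 CPM (185 to 210). B cell and mature erythroid and neutrophil codes were at the low end, with 2.63 CPM in E16.5-2 Bcell1, 2.17 CPM in adult EryP2 and 0 UMIs in E18.5 Neu2, whose interval reached 9.06 CPM. The thinned share was 24.3% in adult HSPC5 against 1.12% in adult B cell codes and 2.78% in adult T cell codes.

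**Figure D1:**
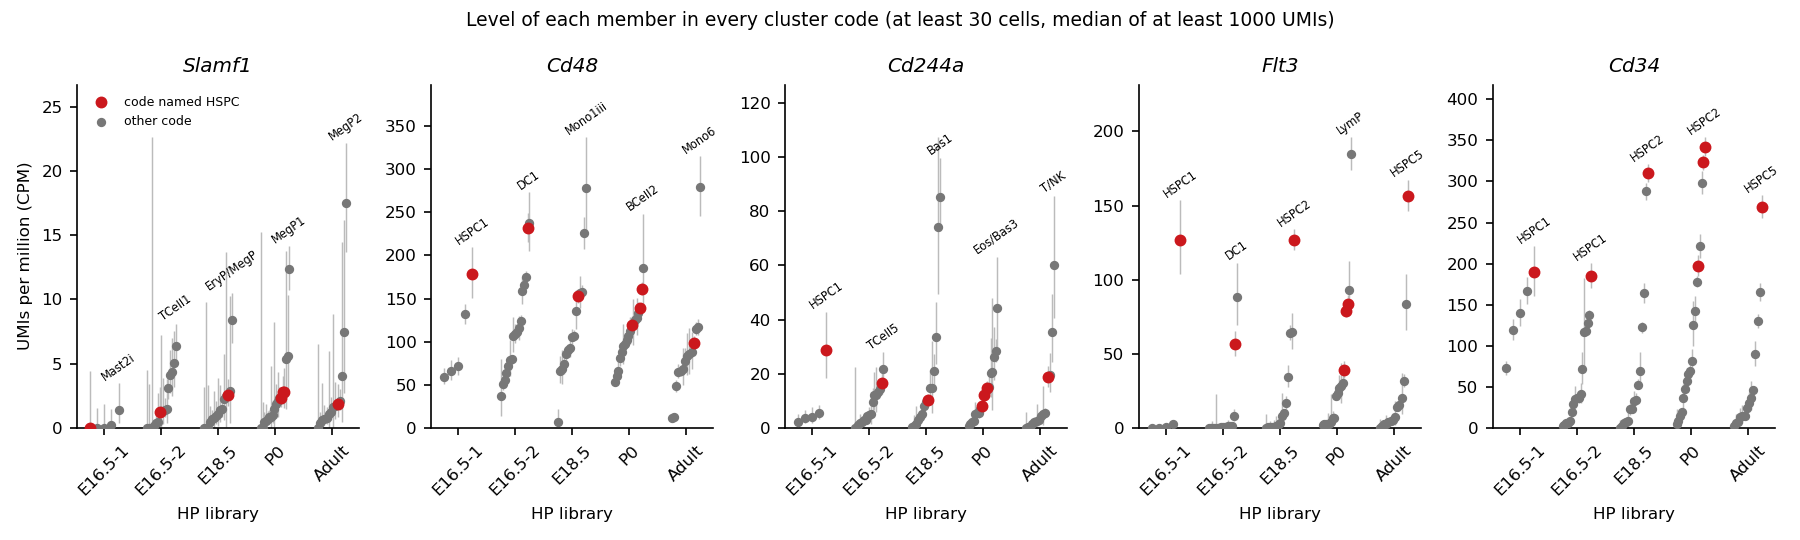
UMIs per 1000000 (CPM) of each member in each cluster code with at least 30 cells and a median of at least 1000 UMIs, in ascending order within each HP library; bars are exact Poisson 95% intervals and red points are codes named HSPC. The top Slamf1 codes after E16.5 are EryP/MegP, MegP1 and MegP2 (8.39, 12.3 and 17.5 CPM), while an HSPC code leads for Cd34 in all 5 libraries.

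Because antibody and transcript were read from the same cells, transcript levels were set beside the share of antibody-positive cells (centred log ratio of the antibody counts above 1) over the codes with a median of at least 1000 UMIs. The Spearman correlation of Slamf1 CPM with the CD150-positive share was 0.78, 0.76, 0.35, 0.71 and 0.61 over 5, 17, 15, 18 and 14 codes of E16.5-1, E16.5-2, E18.5, P0 and adult. For Cd48 and the CD48 antibody it was 0.70, 0.67, 0.25, 0.52 and 0.59. For Flt3 and the CD135 antibody it was 0.87, -0.04, 0.60, 0.78 and 0.68, so the transcript and the antibody had no common order over codes in E16.5-2 only. With shallow codes kept, the E18.5 and adult values were 0.16 and 0.33 for Slamf1, 0.27 and 0.48 for Cd48 and 0.51 and 0.29 for Flt3. The CD48-positive share itself had a correlation of 0.70 with the median UMIs of a code at E18.5. These are descriptions over codes that share a library, its depth and its antibody stain. CD135-positive cells made up 49.0% of P0 LymP, 36.6% of adult HSPC5, 32.2% of E18.5 HSPC2 and 36.4% of E16.5-1 HSPC1, but 9.70% of HSPC1 and 5.36% of DC1 in E16.5-2. The median CD135 antibody count per cell was 3 in E16.5-1, 1 in E16.5-2 and at E18.5, and 0 at P0 and in the adult, and the lowest CD135 count of a positive cell was 7, 4, 4, 3 and 3 in the same libraries. For the CD48 antibody the medians were 77, 7, 89, 107 and 105, lowest in E16.5-2. CD150-positive cells had a median of 3 CD150 counts in E16.5-2, against 20, 11, 15 and 18 in E16.5-1, E18.5, P0 and adult. What these low counts did to the splits and gates of E16.5-2 was not tested.

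**Figure D2:**
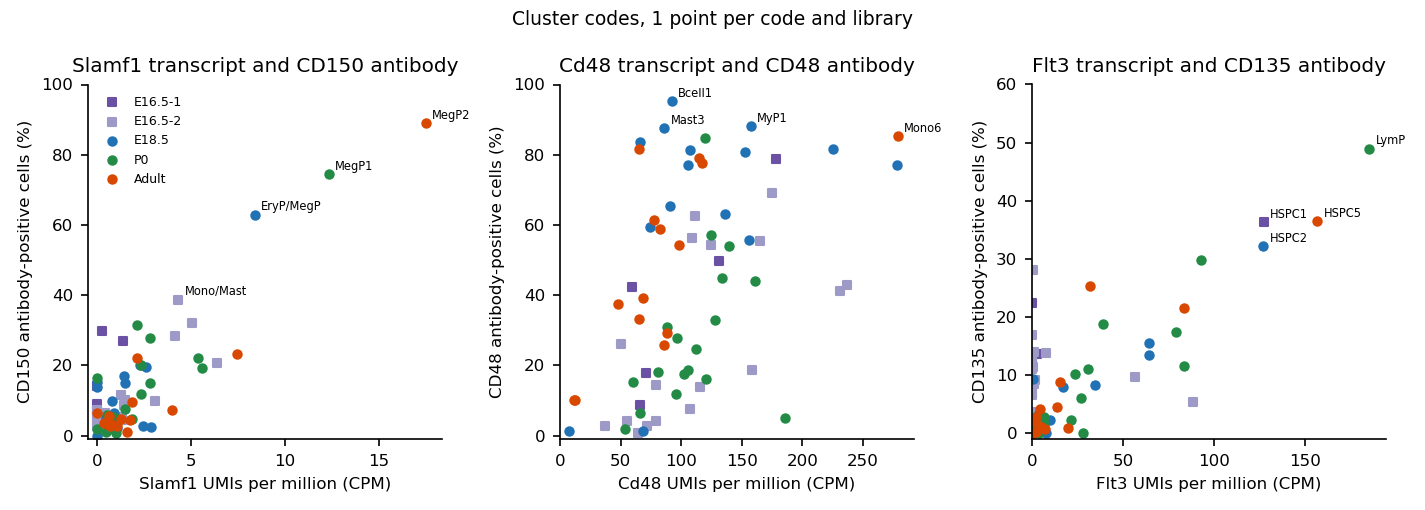
Share of antibody-positive cells (percent, y axis) against transcript level (CPM, x axis) for 3 gene and antibody pairs, with 1 point per cluster code and library and colour for the library. MegP2, MegP1 and EryP/MegP stand apart for Slamf1 and CD150 (89.0%, 74.5% and 62.9% positive), and LymP for Flt3 and CD135 (49.0%).

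Whether cells that carry an antigen also hold more of its transcript was tested by splitting each of the 5 HP libraries into antibody-positive and antibody-negative cells, summing UMIs and fitting edgeR's quasi-likelihood model with the library as a block. Nothing in the labels says that the libraries stand for more than pools of mice, so the p-values measure the spread between 5 libraries. That spread may be technical or may come from differences between stages. With 1 library for each stage after E16.5, these cannot be told apart. Slamf1 in CD150-negative against CD150-positive cells was at 0.553 and 0.639 CPM in E16.5-1, 1.79 and 4.92 CPM in E16.5-2, 1.07 and 8.31 CPM at E18.5, 1.08 and 11.6 CPM at P0 and 0.998 and 10.7 CPM in the adult. The positive sum was higher in each, with non-overlapping intervals from E16.5-2 on, while E16.5-1 had 2 UMIs in 104 positive cells. Slamf1 rose 6.56-fold with the antibody (log2 fold change 2.71, SE 0.39, edgeR adjusted p = 0.0287 over 12644 genes), where 169 genes (1.34%) were called, 42 of them higher (0.332%). Without the E18.5, P0 or adult library the log2 fold change was 2.63, 2.43 or 2.48 and the edgeR adjusted p was 0.122, 0.191 or 0.0944, so each of these libraries was needed for the call. The largest code among CD150-positive cells was Mono/Mast (46.2%) in E16.5-1, TCell1 (20.4%) in E16.5-2, EryP/MegP (32.6%) at E18.5, MegP1 (49.7%) at P0 and MegP2 (43.2%) in the adult. Within cells of HSPC codes alone the difference was as large, with a log2 fold change of 3.39 (edgeR adjusted p = 3.4e-05, where 425 of 10290 genes were called). That fit held 4 libraries, since E16.5-1 had too few CD150-positive cells of HSPC codes.

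Flt3 moved the other way with CD150. It was at 12.5 CPM in CD150-negative and 3.84 CPM in CD150-positive cells of E16.5-1, 3.51 and 1.95 CPM in E16.5-2, 41.6 and 15.9 CPM at E18.5, 39.7 and 12.4 CPM at P0, and 26.4 and 9.23 CPM in the adult. The positive sum was lower in 5 of 5 libraries. Flt3 was 2.71-fold lower in CD150-positive cells (log2 fold change -1.44, SE 0.13, edgeR adjusted p = 0.0045), in a direction in which 127 genes (1.00%) were called. This call was kept in 14 of 15 alternative settings. Within HSPC codes, in the fit without E16.5-1, it was -1.25 (edgeR adjusted p = 8.3e-06). Cd244a was also lower in 5 of 5 libraries (log2 fold change -0.93, SE 0.20, edgeR adjusted p = 0.0832), as was Cd34 (log2 fold change -0.67, SE 0.15, edgeR adjusted p = 0.0815), and neither passed the threshold. Each of these 2 genes passed in 6 of 15 alternative settings. Both passed with DESeq2, which called 803 genes, and without the E16.5 libraries, where edgeR called 1693 of 13777 genes, so many more genes passed there than among the 169. Cd48 had a log2 fold change of 0.03 (SE 0.11, edgeR adjusted p = 0.915), higher in 3 libraries and lower in 2.

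Cd48 was higher in CD48-positive cells in 5 of 5 libraries, by a smaller factor. CD48-negative and CD48-positive cells held 72.8 and 123 CPM in E16.5-1, 92.1 and 158 CPM in E16.5-2, 85.7 and 132 CPM at E18.5, 88.7 and 136 CPM at P0, and 36.8 and 97.5 CPM in the adult. The intervals of the positive and negative sums did not overlap in any library, and the negative cells still held Cd48. The lowest CD48 antibody count of a positive cell was 109, 12, 81, 151 and 133 in these libraries. The median CD48 count over all cells was 77, 7, 89, 107 and 105, so cells called negative could still carry many CD48 counts. The log2 fold change was 0.79 (SE 0.11) with an edgeR adjusted p of 0.0877 over 13547 genes, of which 4 (0.0295%) were called, so Cd48 did not pass, while DESeq2 gave 0.79 with an adjusted p of 9.6e-07. At E18.5 the CD48-negative cells had a median of 589 UMIs against 27344 UMIs in the positive cells. The shares with a Cd48 UMI, over cells with at least 1000 UMIs thinned to that number, were 13.5, 14.5, 13.8, 11.7 and 9.27% in positive and 7.71, 7.86, 8.27, 8.00 and 4.40% in negative cells, so at equal depth the positive cells were higher in each library. The other members had edgeR adjusted p-values of 0.261 (Cd244a), 0.276 (Flt3), 0.511 (Slamf1) and 0.809 (Cd34).

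Flt3 separated strongly by the CD135 antibody in 4 libraries and not in E16.5-2. CD135-negative and CD135-positive cells held 7.83 and 22.9 CPM in E16.5-1, 3.30 and 3.29 CPM in E16.5-2, 25.6 and 137 CPM at E18.5, 25.4 and 133 CPM at P0, and 11.4 and 145 CPM in the adult. The largest ratio was that of the adult, with a log2 value of 3.67. Over all 5 libraries the log2 fold change was 2.20 (SE 0.43) and the edgeR adjusted p was 0.0677 over 11988 genes, of which 15 (0.125%) were called, 4 of them higher (0.0334%) and 11 lower (0.0918%), so Flt3 did not pass. Without E16.5-2 the log2 fold change was 2.58 with an edgeR adjusted p of 0.0068, and without both E16.5 libraries it was 2.74 with an edgeR adjusted p of 0.0010. CD135-positive cells of E16.5-2 were spread over TCell1 (17.9%), TCell3 (13.7%) and TCell2 (10.2%), with 3.98% in HSPC1, whereas 40.6 to 51.4% were in HSPC codes from E18.5 on. Within HSPC codes the difference was smaller and passed (log2 fold change 1.00, edgeR adjusted p = 0.0021, where 266 of 10147 genes were called). None of the other members passed, and without both E16.5 libraries, where 3052 of 13583 genes were called in place of 15, Cd34 (1.15, edgeR adjusted p = 0.0013) and Cd244a (1.11, edgeR adjusted p = 0.0296) were higher and Slamf1 lower (-1.13, edgeR adjusted p = 0.0333) in CD135-positive cells.

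Whether the antibody difference itself differed between the 2 E16.5 libraries and the 3 later ones was tested with an interaction term. None of the 5 members passed for any antibody: edgeR called 0 of 12644 genes for CD150 (1785 at an unadjusted p under 0.05, 381 with DESeq2), 0 of 13547 for CD48 (1023 and 56) and 33 of 11988 (0.275%) for CD135, of which 17 had a positive term (0.142%) and 16 a negative one (0.133%). The 4 largest member terms were those of Flt3 for CD135 (log2 difference -1.97, SE 0.59, edgeR adjusted p = 0.187), Slamf1 for CD150 (-1.96, SE 0.37, edgeR adjusted p = 0.101), Cd34 for CD48 (-1.74, SE 0.44, edgeR adjusted p = 0.648) and Cd34 for CD135 (-1.69, SE 0.31, edgeR adjusted p = 0.0937), all lower at E16.5 than later. The next, Slamf1 for CD135, was nearly as large in the other direction (1.69, SE 0.46, edgeR adjusted p = 0.169) and passed under no alternative. The 4 lower terms passed under some alternatives. Without the filter on low counts, the edgeR adjusted p was 0.0361 for Flt3 with CD135, 0.0323 for Slamf1 with CD150 and 0.0031 for Cd34 with CD135. With DESeq2 the adjusted p was 0.0167 for Slamf1 with CD150, 0.0256 for Cd34 with CD48 and 1.7e-04 for Cd34 with CD135. Cd34 with CD135 also passed at an antibody threshold of 1.5 (edgeR adjusted p = 0.0279) and without E16.5-1 (edgeR adjusted p = 0.0274).

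**Figure D3:**
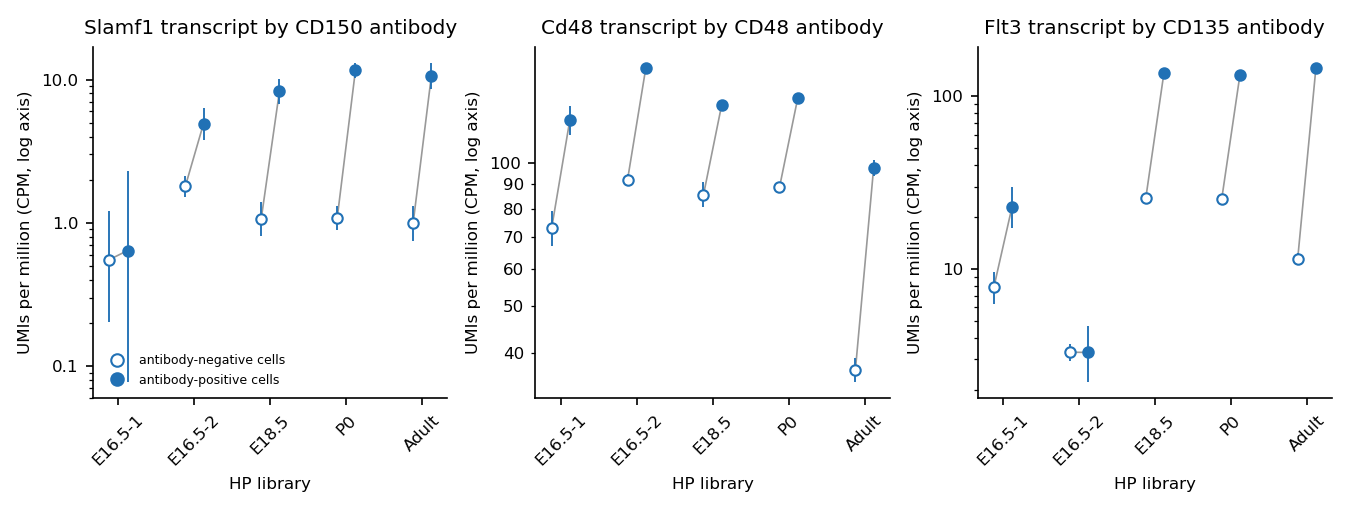
Slamf1, Cd48 and Flt3 levels (CPM, log axis) in antibody-negative (open) and antibody-positive (filled) cells of each HP library, with exact Poisson 95% intervals that are hidden where smaller than the point. Cd48 is higher in positive cells in all 5 libraries, and Flt3 is at 3.30 and 3.29 CPM in E16.5-2.

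The antibody gates used for adult stem and progenitor cells were then applied to Sca-1-positive cells of each library: phenotypic long-term stem cells (phLT-HSC, CD135-negative CD48-negative CD150-positive), short-term stem cells (phST-HSC, negative for all 3), and multipotent progenitors phMPP2 (CD135-negative CD48-positive CD150-positive), phMPP3 (CD135-negative CD48-positive CD150-negative) and phMPP4 (CD135-positive CD48-positive CD150-negative), so that no cell was in more than 1 gate. The gates held 319 phLT-HSCs, 1128 phST-HSCs, 367 phMPP2s, 1266 phMPP3s and 509 phMPP4s, and the 6 phMPP4s of E16.5-1 were left out of the test. The gated cells were not the same cells at each stage: cells of HSPC codes were 0% of phLT-HSCs in both E16.5 libraries, where 90.0% were Mono/Mast in E16.5-1 and 78.6% had TCell codes in E16.5-2, and 69.7%, 65.8% and 21.6% at E18.5, P0 and in the adult, where B cell codes were 38.8%. The other gates were mixed as well. TCell codes were 88.1% of E16.5-2 phMPP3s, monocyte codes 41.3% of E18.5 phST-HSCs, and B cell codes 55.2% of adult phMPP3s. Megakaryocyte codes were 29.1% of adult phMPP2s. At P0, HSPC codes were the largest class in every gate, at 43.9 to 65.8%. A difference between gates is therefore also one between mixes of codes.

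The products of Cd244a and Cd34 play no part in the gates. Cd244a was lowest in phLT-HSCs when libraries were summed. It gave 1, 1, 0, 2 and 1 UMIs in the phLT-HSCs of E16.5-1, E16.5-2, E18.5, P0 and adult. Over the libraries this was 1.36 CPM (0.441 to 3.17), against 9.45 CPM in phST-HSCs, 8.41 CPM in phMPP2s, 11.4 CPM in phMPP3s and 13.6 CPM (11.4 to 16.1) in phMPP4s. In E16.5-1 phMPP3s were lower than phLT-HSCs, at 3.72 CPM (3 UMIs) against 5.43 CPM (1 UMI). Cd244a, the receptor for CD48, was higher than in phLT-HSCs in phST-HSCs (edgeR adjusted p = 0.0431), phMPP3s (edgeR adjusted p = 0.0053) and phMPP4s (edgeR adjusted p = 0.0022), and the phMPP2 difference did not pass (edgeR adjusted p = 0.113). The shares of all 10540 genes called in these comparisons were 0.161% for phST-HSC, 0.152% for phMPP2, 2.33% for phMPP3 and 2.71% for phMPP4. By direction, 0.114% were higher and 0.0474% lower in phST-HSCs, 0.0474% and 0.104% in phMPP2s, 0.740% and 1.59% in phMPP3s, and 1.01% and 1.71% in phMPP4s. Fitted fold changes are not given for Cd244a because its phLT-HSC counts were so low. The phMPP3 and phMPP4 calls were lost without the P0 library (edgeR adjusted p = 0.140 and 0.144), and the phST-HSC call without any of the 3 later libraries (edgeR adjusted p from 0.164 to 0.401). Over all 14 alternative settings the phST-HSC call was kept in 7, and the phMPP3 and phMPP4 calls in 12 each. The phST-HSC call was therefore also lost under settings that left out no library.

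Cd34 was at 21.7, 26.3, 142, 142 and 79.1 CPM in phLT-HSCs of the 5 libraries, at 103, 54.6, 183, 210.5 and 148 CPM in phST-HSCs, and at 25.2, 284, 282 and 163 CPM in phMPP4s of E16.5-2, E18.5, P0 and adult. In phMPP2s it was at 56.6, 36.1, 162, 164 and 77.9 CPM, higher than in phLT-HSCs in 4 libraries and lower in the adult (log2 fold change 0.30, SE 0.21, edgeR adjusted p = 0.676), and in E16.5-2 phMPP4s it was also lower than in phLT-HSCs. It was higher in phST-HSCs and phMPP3s than in phLT-HSCs in 5 of 5 libraries, by log2 fold changes of 0.88 (SE 0.21, edgeR adjusted p = 0.0813) and 0.70 (SE 0.21, edgeR adjusted p = 0.0687) that did not pass. In phMPP4s it was 1.99-fold higher (log2 fold change 0.99, SE 0.21, edgeR adjusted p = 0.0143), in 3 of 4 libraries. That call was lost without the E18.5, P0 or adult library (edgeR adjusted p = 0.154, 0.202 and 0.0991). Within HSPC codes alone, the phST-HSC and phMPP3 differences were 1.03 and 0.99 on the log2 scale, with edgeR adjusted p-values of 1.7e-04 and 5.7e-05. These rest on E18.5, P0 and adult, since no E16.5 phLT-HSC had an HSPC code.

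Flt3 was highest in phMPP4s from E18.5 on. The phMPP4 gate is the only gate of CD135-positive cells and CD135 is the Flt3 product, so this contrast is not separate from the gating. In phLT-HSCs it was at 0, 5.26, 20.5, 34.4 and 12.0 CPM in the 5 libraries, and in phMPP4s it was at 3.28, 172, 132 and 162 CPM in E16.5-2, E18.5, P0 and adult. It was 6.54-fold higher in phMPP4s (log2 fold change 2.71, SE 0.34, edgeR adjusted p = 1.5e-04), a call kept without each of the libraries in turn. It was also higher in phST-HSCs (log2 fold change 1.88, SE 0.35, edgeR adjusted p = 0.0252) and phMPP3s (log2 fold change 1.32, SE 0.35, edgeR adjusted p = 0.0463), gates of cells called CD135-negative. That call does not mean absence of CD135. The lowest CD135 count of a positive cell was 4, 3 and 3 at E18.5, P0 and in the adult. All CD135-negative cells of these libraries held Flt3 at 25.6, 25.4 and 11.4 CPM. What this did to the gates was not tested. The phST-HSC call was lost without E18.5, P0 or adult (edgeR adjusted p from 0.124 to 0.195) and the phMPP3 call without E16.5-1 or any of those (0.0578 to 0.248). Over all 14 alternative settings the phST-HSC call was kept in 10 and the phMPP3 call in 7. Each was therefore also lost under settings that left out no library. In phMPP2s, the CD150-positive CD48-positive gate, the Flt3 log2 fold change was 0.17 (SE 0.39, edgeR adjusted p = 0.95).

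Together with those to CD135 and Sca-1, the antibodies to the products of Slamf1 and Cd48 define the gates. Slamf1 was at 0, 8.77, 22.1, 13.7 and 14.4 CPM in phLT-HSCs and at 0, 3.44, 5.82, 12.2 and 14.9 CPM in phMPP2s, the other CD150-positive gate, and the difference between these gates did not pass (log2 fold change -0.69, SE 0.53, edgeR adjusted p = 0.712). It fell by 2.85 on the log2 scale in phMPP3s (edgeR adjusted p = 0.0099) and by 3.25 in phMPP4s (edgeR adjusted p = 0.0110), both calls lost without any of the 3 later libraries (edgeR adjusted p from 0.0832 to 0.175), and the phST-HSC difference was -2.93 (SE 0.64, edgeR adjusted p = 0.0593). Cd48 was at 114, 89.5, 45.7, 64.6 and 40.7 CPM in phLT-HSCs, in phMPP3s at 151, 160, 146, 137 and 90.8 CPM and in phMPP2s at 105, 136, 199.5, 147 and 78.6 CPM. In E16.5-1 the CD48-negative phLT-HSCs were not below the CD48-positive phMPP2s, with overlapping intervals (70.6 to 174 and 74.7 to 144 CPM, 10 cells each), and in E16.5-2 the CD48-negative phST-HSCs (131 CPM) were near the phMPP2s. Over the libraries Cd48 was 2.11-fold higher in phMPP2s (edgeR adjusted p = 0.0135), 2.15-fold in phMPP3s (edgeR adjusted p = 0.0016) and 1.84-fold in phMPP4s (edgeR adjusted p = 0.0143). The phMPP3 call was lost without P0 (edgeR adjusted p = 0.0756) and the phMPP2 and phMPP4 calls without any of the 3 later libraries (0.0702 to 0.464).

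**Figure D4:**
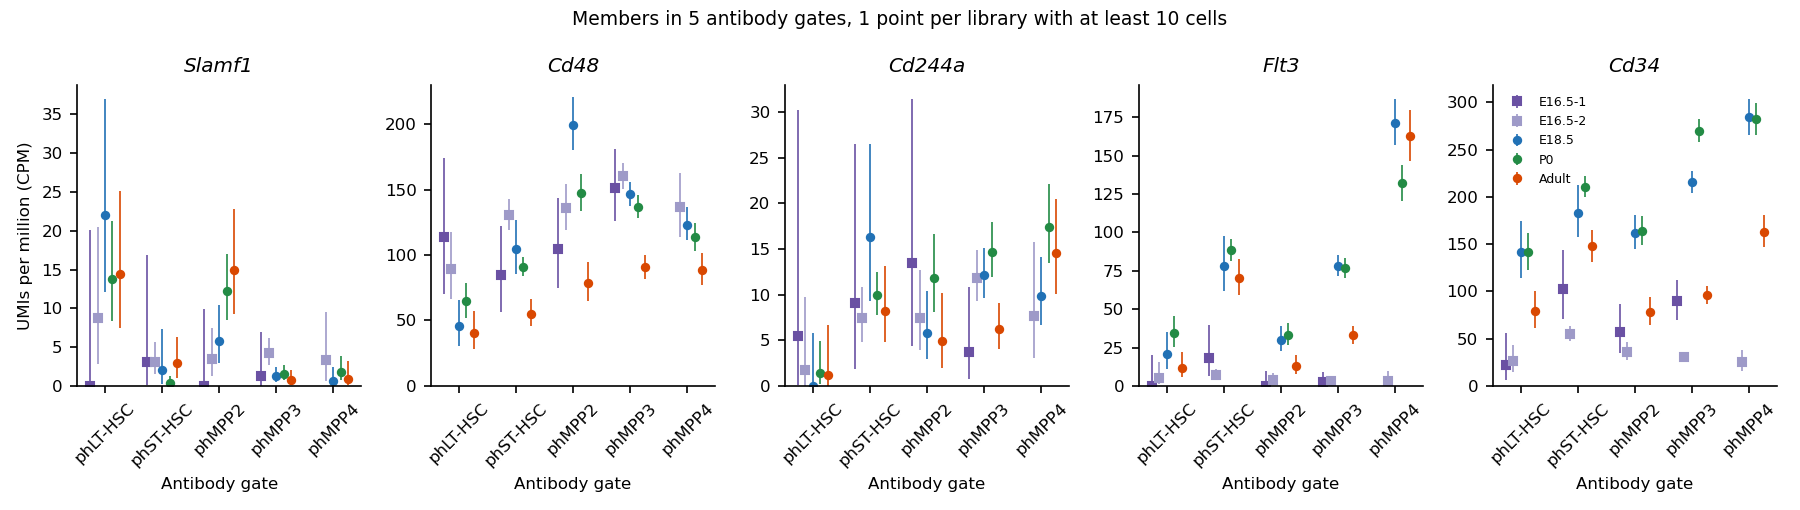
Level of each member (CPM) in the 5 antibody gates, 1 point per HP library with at least 10 cells in the gate and exact Poisson 95% intervals. Flt3 rises to 132 to 172 CPM in phMPP4 of E18.5, P0 and adult, while Cd244a is at most 5.43 CPM in phLT-HSC of every library.

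When the gates were applied only to cells with HSPC codes at E18.5, P0 and in the adult in sum, Slamf1 was high in both CD150-positive gates, and Cd48, Cd244a and Cd34 were lowest in phLT-HSCs. Over the 127 phLT-HSCs of this kind, Slamf1 was at 15.7 CPM (10.2 to 23.2), against 0.905 CPM in phST-HSCs, 13.2 CPM in phMPP2s, 1.30 CPM in phMPP3s and 0.918 CPM in phMPP4s. The intervals of phLT-HSCs and phMPP2s (8.82 to 18.9) overlapped, and within P0, which gave 75 of the 127 cells, phMPP2s held more (14.9 against 11.8 CPM). Cd48 was at 38.3 CPM in phLT-HSCs (29.3 to 49.2) and at 82.8, 180, 153 and 115 CPM in the other gates in the same order. Cd244a was at 1.26 CPM (2 UMIs) against 8.37, 9.08, 12.4 and 12.4 CPM. Flt3 was at 35.8 CPM (27.1 to 46.4) against 125, 44.5, 103 and 182 CPM, so that both CD150-positive gates were low, with overlapping intervals, and at P0 phMPP2s held less than phLT-HSCs (43.1 against 46.3 CPM). Cd34 was at 170 CPM (150 to 191) against 340, 247, 333 and 338 CPM, and no gate was free of it.

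Over the 20 tests of a member between gates, 12 passed. Those of Slamf1, those of Cd48 and that of Flt3 in phMPP4s compare gates drawn on the antibody to the same gene's product. Only the Cd244a and Cd34 calls concern genes whose products play no part in the gates. The shares of all 10540 genes called were 0.161, 0.152, 2.33 and 2.71% for phST-HSC, phMPP2, phMPP3 and phMPP4. With the antibody threshold raised to 1.5, 4 of the 12 passed, Flt3 in phST-HSCs, phMPP3s and phMPP4s and Slamf1 in phMPP3s, and with it lowered to 0.75, 8 of them did. In cells of HSPC codes only, 11 of the 12 passed, all but Cd244a in phST-HSCs. Without P0, 1 of the 12 passed, and without E18.5 or without the adult 4 did. With RLE normalization 10 of the 12 passed, and with DESeq2 11 did. Tests beyond the 12 also came to pass, 4 in HSPC codes, 4 without the filter on low counts, 3 with DESeq2, 3 without E16.5-2, 2 without both E16.5 libraries and 1 at a threshold of 1.5.

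Of the 6 other SLAM family genes, each had its highest level outside the HSPC codes with 1 exception. Ly9 reached 64.3 CPM in E18.5 Mono1i and Cd84 280 CPM in E18.5 Mono2, and both were found at 10 CPM or more in most codes, 54 and 66 of 77. Slamf6 (420.5 CPM) and Slamf7 (247 CPM) were highest in P0 BCell2, and Slamf8 in E16.5-2 DC1 (44.2 CPM). Slamf9 was highest in E16.5-1 HSPC1 (40.8 CPM). The SLAM adaptor Sh2d1a (SAP) reached 233 CPM in E16.5-2 TCell6 and Sh2d1b1 (EAT-2) 143 CPM in E18.5 Mono1iii, and Sh2d1b2 was not measured. None of the SLAM family genes or adaptors that could be tested (5 or 6 and 1 or 2) passed in any antibody or gate comparison, with edgeR adjusted p-values for CD150 from 0.0887 for Slamf7 (log2 fold change -0.60) to 0.641 for Slamf6 (-0.33). The median log2 fold change of the 5 tested SLAM family genes with CD150 was -0.33, beside 0.02 over all genes. Among relatives, the CD48-binding adhesion receptor Cd2 in its highest code, adult Bcell3, was at 103 CPM and the CD34-related sialomucin Podxl, in P0 EryP1, at 20.5 CPM. The FLT3 ligand gene Flt3l and the sialomucin Podxl2 had medians of 5.01 and 0.372 CPM over the sums, and their highest values lay in shallow codes and are not given. Of these, Cd2 fell in phMPP4s (log2 fold change -3.70, SE 0.98, edgeR adjusted p = 0.0440), with no library holding enough UMIs for its own ratio.

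Of 9 stem and progenitor genes listed beside the members, Mecom, a stem cell transcription factor, rose in CD150-positive cells (log2 fold change 1.10, SE 0.15, edgeR adjusted p = 0.0242, higher in 4 of 4 libraries), and none of them passed for CD48 or CD135. In the gates, 4 of the 9 fell in phMPP3s relative to phLT-HSCs and 3 in phMPP4s, beside 1.59% and 1.71% of all 10540 genes. The 9 were listed as stem and progenitor genes, and 0% of the E16.5 phLT-HSCs had HSPC codes. Mecom fell by 2.48 on the log2 scale in phMPP3s and by 2.36 in phMPP4s (edgeR adjusted p = 3.8e-05 and 8.5e-05), and Procr, the endothelial protein C receptor of stem cells, by 2.39 and 2.70 (edgeR adjusted p = 0.0011 and 4.8e-04). The homeobox gene Meis1 fell in both gates, and Hlf in phMPP3s (-1.18, SE 0.31, edgeR adjusted p = 0.0445). Mecom and Procr also fell in phMPP2s, by 2.32 and 2.24. Dntt, the lymphoid DNA polymerase TdT, rose in phST-HSCs, phMPP3s and phMPP4s (log2 fold changes 3.79, 5.55 and 6.03), and only 1 library held enough UMIs for its own ratio. Kit, Ly6a, Il7r and Gata1 did not pass in any gate.

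The genes most like each member over the 77 sums of a code in a library, by Pearson correlation of log2(CPM + 10) among 7568 genes, are given as a description. They were Mfsd2b (0.65), Slc14a1 (0.63) and Samd14 (0.61) for Slamf1, each itself highest in adult MegP2. For Cd48 they were Psme1 (0.79), Oxa1l (0.69) and Mtpn (0.69), and for Cd244a Itgal (0.77), Nabp1 (0.77) and Dusp5 (0.72). Flt3 was most like the MHC class II chaperone gene H2-DMa (0.74), Shisa8 (0.73) and H2afy (0.71). Cd34 was most like Meis1 (0.68), Hmga2 (0.68) and Ctla2a (0.67), of which Meis1 was highest in adult MegP2, Hmga2 in P0 LymP and Ctla2a in P0 HSPC2. The points share libraries and depth. With a pseudocount of 1 in place of 10, Hemgn entered the list of Slamf1 and Dapp1 led that of Cd34.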

How the data were processed

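Lineage-negative Kit-positive BM cells and, separately, CD45-negative Ter119-negative stromal cells were profiled by CITE-Seq, with 29 antibodies in the deposited table. The authors deposited UMI counts per gene and cell and antibody counts per cell, made with Cell Ranger 3.1.0 and Seurat 3.1.5 on mm10, together with a table of library, stage and cluster code for each cell, which was used as given. A cell was called positive for an antibody when the centred log ratio of its antibody counts exceeded 1. Levels are UMIs per 1000000 (CPM) after summing over cells. Their 95% intervals are exact Poisson limits, and those of cell shares are Clopper-Pearson limits. Shares were compared after thinning cells with at least 1000 UMIs to 1000. Summed counts were tested over all genes with edgeR 4.0.16 (R 4.3.3), using TMM normalization, filterByExpr, the quasi-likelihood F test, the library as a block and Benjamini-Hochberg adjustment at 0.05, with at least 10 cells in a sum and 4 residual degrees of freedom in the antibody tests. The step was tested on simulated data. Alternatives were RLE normalization, no filter, DESeq2 1.42.0, other antibody thresholds, subsets of cells and leaving out each library. The genes named were the 5 members, fixed lists of SLAM family genes, adaptors, ligands and companions, and the 3 genes most correlated with each member over sums with at least 30 cells, among genes reaching 50 CPM. Members and lists were chosen with earlier results of these data known. No doublet caller was run here, since per the methods of the study the authors had already removed the cells highest in UMIs or genes as likely doublets. Intervals cover counting error only. Promoter windows were read from RefSeq on GRCm38.p6 and compared with the genome there. Of the fixed list, Sh2d1b2 was not measured, and 1 listed companion gene is not reported here and was left out of the list counts and of the stem cell marker sum. Stromal libraries were used for the closing section only, and no protein sequence was used here.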

Additional observations from a re-analysis of the deposited data

Results flagged for a closer look

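The stromal libraries, which were sorted free of CD45-positive cells and enter no comparison above, held UMIs of some members beyond the 3 that a count of 0 allows. Cd34 was at 40.1 CPM at E16.5, 46.4 CPM at E18.5, 80.5 CPM at P0 and 186.5 CPM in the adult. The highest stromal codes were the adult arterial endothelial code AECs (895 CPM), the adult code F8 (854 CPM) and the endothelial code ECs of E18.5 (565 CPM), P0 (512 CPM) and E16.5 (461 CPM), above the 342 CPM of the highest HP code. Slamf1 was at 0.530 CPM (62 UMIs) at E16.5, 0.747 CPM (84 UMIs) at E18.5, 0.770 CPM (150 UMIs) at P0 and 1.20 CPM (110 UMIs) in the adult. Cd48 passed that limit at P0 alone, with 0.0359 CPM (7 UMIs), and Cd244a in the adult alone, with 0.250 CPM (23 UMIs). Flt3 gave 0 to 3 UMIs in each library and did not pass it.

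A CD34 antibody was counted in E16.5-2 and in no other HP library. A count was found in 31.8% of the E16.5-2 cells (interval 30.5 to 33.1). By code, the share was 57.8% in Mono/Mast, where Cd34 was at 36.2 CPM, 29.1% in HSPC1, where it was at 185 CPM, and 32.0% in Bcell1, where it was at 2.63 CPM, so the order of codes by antibody was not the order by transcript. The counts were low, with a mean of 0.452 and a median of 0 per cell over the library. Mean counts were 1.32 in Mono/Mast, 0.503 in HSPC1 and 0.387 in Bcell1, so no statement on the CD34 protein is drawn from this order.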

How the results depend on the processing

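Sums of antibody-positive and negative cells came from 5 libraries, 3 of them the only one of their stage, and Slamf1 and Cd244a were limited by few UMIs. The library block pairs the sums that come from 1 library. By replicate number, no paired analysis was possible because the numbers name only the 2 E16.5 libraries. The following 3 choices were made after seeing the data: leaving out both E16.5 libraries, keeping the deepest cell of each shared barcode, and gating HSPC codes only. Of the alternatives for single members, 550 kept direction and side of the threshold, 53 came to pass, 48 no longer passed and 32 changed sign, and the cause was not tested. Counts of called genes (CD150 169, CD48 4, CD135 15, interactions 0, 0 and 33, phST-HSC 17, phMPP2 16, phMPP3 246, phMPP4 286) became 404, 32, 469, 243 (CD150 interaction), 322 (CD135 interaction), 135, 37, 520 and 483 without the filter, and 803, 429, 1011, 381, 56, 312, 88, 28 and 426 (phMPP4 staying within 1.5 times) with DESeq2. At a threshold of 0.75 they were 75 (CD150), 183 (CD135), 0 (CD135 interaction), 4, 53, 697 and 1004, and at 1.5 they were 568, 11, 926, 54 (CD150 interaction), 117 (CD135 interaction), 48, 6, 127 and 149. In HSPC codes they were 425, 59, 266, 136, 269, 569 and 819, without both E16.5 libraries 1693, 2, 3052, 84, 41, 520 and 716, and between the highest and lowest 25% of cells by antibody 0 (CD48) and 395 (CD135). RLE gave 6 for the CD150 interaction. Leaving out 1 library gave 22 to 496 (CD150), 0 to 11 (CD48), 0 to 996 (CD135), 0 to 1 (CD150 interaction), 0 to 57 (CD135 interaction), 0 to 90, 1 to 46, 19 to 571 and 35 to 681. Slamf1 with CD150 was 2.43 to 3.13 without 1 library and no longer passed without E18.5, P0 or the adult (2.43 to 2.63). Cd48 with CD48 passed at 0.80 without the filter, 0.79 with DESeq2, 0.63 at 1.5 and 0.64 in HSPC codes. Flt3 with CD135 passed at 2.16 without the filter, 2.01 with DESeq2, 2.17 at 0.75, 2.43 at 1.5, 1.00 in HSPC codes, 2.27 between the highest and lowest 25%, 2.74 without both E16.5 libraries and 2.31 and 2.58 without E16.5-1 or E16.5-2 (1.76 to 2.58 without 1 library). No value that changed sign passed (log2 scale). In HSPC codes these were Flt3 (-0.28) and Cd34 (-0.037) with CD48 and Cd48 (-0.21) and Cd34 (-0.33) with CD135. At 0.75 they were the interactions of Cd48 with CD150 (0.046) and Flt3 with CD48 (0.42) and, in phMPP2s, Flt3 (-0.60) and Cd34 (-0.17). At 1.5 they were the interactions of Cd48 (0.084) and Cd244a (-0.69) with CD150, Slamf1 (-0.28), Cd48 (0.080) and Flt3 (0.16) with CD48 and Cd48 with CD135 (0.15), and with DESeq2 that of Slamf1 with CD48 (-0.11). Ranges without 1 library that crossed 0 were those of Cd48 with CD150 (-0.036 to 0.12), Cd34 with CD48 (-0.050 to 0.65) and the interactions of Cd48 (-0.24 to 0.12), Flt3 (-0.13 to 0.67) and Cd34 (-0.19 to 0.76) with CD150, Slamf1 (-1.90 to 0.73), Cd48 (-0.21 to 0.11), Cd244a (-0.20 to 0.43) and Flt3 (-1.003 to 0.70) with CD48, and Cd48 with CD135 (-0.17 to 0.17).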
